A study of Mus musculus with 6 samples.

Results

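Oxidative phosphorylation is the last stage of respiration, in which the mitochondrial inner membrane passes electrons along protein complexes and uses the resulting proton gradient to make ATP. Complexes I and II take electrons from NADH and succinate, complex III hands them to the carrier cytochrome c, complex IV (cytochrome c oxidase, which holds copper centres) gives them to oxygen, and complex V is the ATP synthase. Most subunits are encoded in the nucleus and imported, while a small set of core subunits is encoded in mitochondrial DNA. The genes described here were the protein-coding rows of a liver count table whose symbols begin with Ndufa, Ndufb, Ndufc, Ndufs, Ndufv, Uqcr, Cox4 to Cox8, Atp5 or mt-, together with Sdha to Sdhd, Cyc1 and Cycs. This choice by name found 108 genes among 41388 rows, 95 of them nuclear and 13 mitochondrially encoded. Complex I had 43, complex II 4, complex III 10, complex IV 22 (Ndufa4 and its isoform Ndufa4l2 included) and complex V 18. The other genes were Cycs (cytochrome c), Cox7a2l (a factor that joins complexes III and IV), Atp5s (a coupling factor and no subunit) and 8 Ndufaf assembly factors of complex I, which the prefix Ndufa also takes in.

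The tested livers came from Atp7b-/- mice, which lack the ATPase that loads hepatocyte copper onto ceruloplasmin and into bile and is mutated in Wilson disease, and the control livers from wild type mice. Both groups had the mixed C57BL x 129S6/SvEv background, were 6 weeks old and ate a diet with 16 ppm copper. There were 3 libraries per genotype, read in 54-base reads. Atp7b-/- replicate 3 (labelled female) and wild type replicate 1 (labelled male) were sequenced from both ends, and Atp7b-/- replicates 1 and 2 (labelled male) and wild type replicates 2 and 3 (labelled female) from a single end. The layout of the run, paired-end or single-end, is the batch the labels name, and within a layout the labelled sex cannot be told apart from the genotype. The labels do not say that each library was a separate mouse, so p-values measure the spread between these libraries. Values of a genotype are listed by replicate number, so the paired-end value is the third for Atp7b-/- and the first for wild type.

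Total counts were 6746192 to 25973968 in Atp7b-/- libraries and 5919389 to 23651080 in wild type libraries. Atp7b itself averaged 15.4 ± 3.32 CPM (counts scaled to the same library total) in Atp7b-/- and 56.7 ± 30.1 CPM in wild type (SD, n = 3 each), with a log2 fold change of -1.73 (edgeR, adjusted p = 0.02). The metallothionein genes Mt1 and Mt2, which bind excess metal, had log2 fold changes of 3.66 and 3.98 (edgeR, adjusted p = 0.0337 and 0.00101). Where the Atp7b deletion lies relative to the remaining counts was not analysed here. The tissue label was checked against 6 hepatocyte markers, whose summed level was 50500 to 64600 CPM in Atp7b-/- and 78200 to 102000 CPM in wild type, with 0 of 6 called and 5 of 6 below 0. The sums did not overlap between the genotypes, but 0 of the 6 markers had separate ranges, against 3.28% of all genes lower. Alb led the sum, with 27700 to 49900 CPM in Atp7b-/- and 42900 to 77700 CPM in wild type. Erythroid sums did not overlap either, at 236 to 344 CPM in Atp7b-/- and 66.4 to 220 CPM in wild type (0 of 5 called). Alas2 led this sum, with 184 to 281 CPM in Atp7b-/- and 12.4 to 191 CPM in wild type. Its ranges overlapped, and 0 of the 5 markers had separate ranges. Ranges were separate for 2 of 5 biliary markers, Sox9 and Epcam (higher, against 5.23% of all genes). Of the 5 biliary log2 fold changes, 3 were above and 2 below 0. Ranges were also separate for 1 of 5 stellate markers, Des (lower, against 3.28% of all genes), at 97.5 CPM in wild type replicate 1. The other 4 stellate markers had log2 fold changes above 0. Whether these differences played a part in any value below was not tested. In bulk tissue fewer cells of a type and less RNA per cell cannot be told apart. Skeletal muscle markers summed to 67.3 CPM in wild type replicate 1 and to 0 to 0.175 CPM in the other libraries, where Ckm was at 0, and adipose markers to 32.4 CPM in Atp7b-/- replicate 3 and 52.3 CPM in wild type replicate 1 but 1.52 to 2.41 CPM elsewhere.

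The mRNAs of oxidative phosphorylation were nearly level between the genotypes. Of the 108 genes, 97 passed the filter on low counts, and 1 of those 97 was called higher in Atp7b-/- livers and 0 lower by edgeR's quasi-likelihood test with layout as a term (Benjamini-Hochberg adjusted p under 0.05 over 12988 genes). Over all genes tested, 1.9% were called higher and 0.585% lower, 2.49% in all, so the share of called members lay near or below the background. DESeq2 and limma-voom also gave 1 higher and 0 lower. Of the 12988 genes, DESeq2 called 468 higher and 302 lower, and limma-voom 289 higher and 107 lower. At an unadjusted p under 0.05 there were 3 members (3.09%), 1 higher and 2 lower, against 14.5% of all genes. The fitted log2 fold change of Atp7b-/- over wild type was within 0.5 of 0 in 91 of the 97 (93.8%), against 74.3% of all genes, and its median size was 0.18 against 0.27. The median SE was 0.22, ranging from 0.17 to 0.67, against a median of 0.26 for all genes. Members were also counted more deeply, with a median of 89.1 CPM in Atp7b-/- and 91.4 CPM in wild type. All genes tested had medians of 17.0 CPM in Atp7b-/- and 17.4 CPM in wild type. Whether this played a part in the smaller changes was not tested. The 6 members outside 0.5 were Cox6b2 (2.03), Cox7a1 (-1.33), Ndufaf2 (-1.07), Atp5g1 (-0.67), Atp5g2 (0.62) and Ndufc1 (0.57), of which Cox6b2 alone passed the test.

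**Figure D1:**
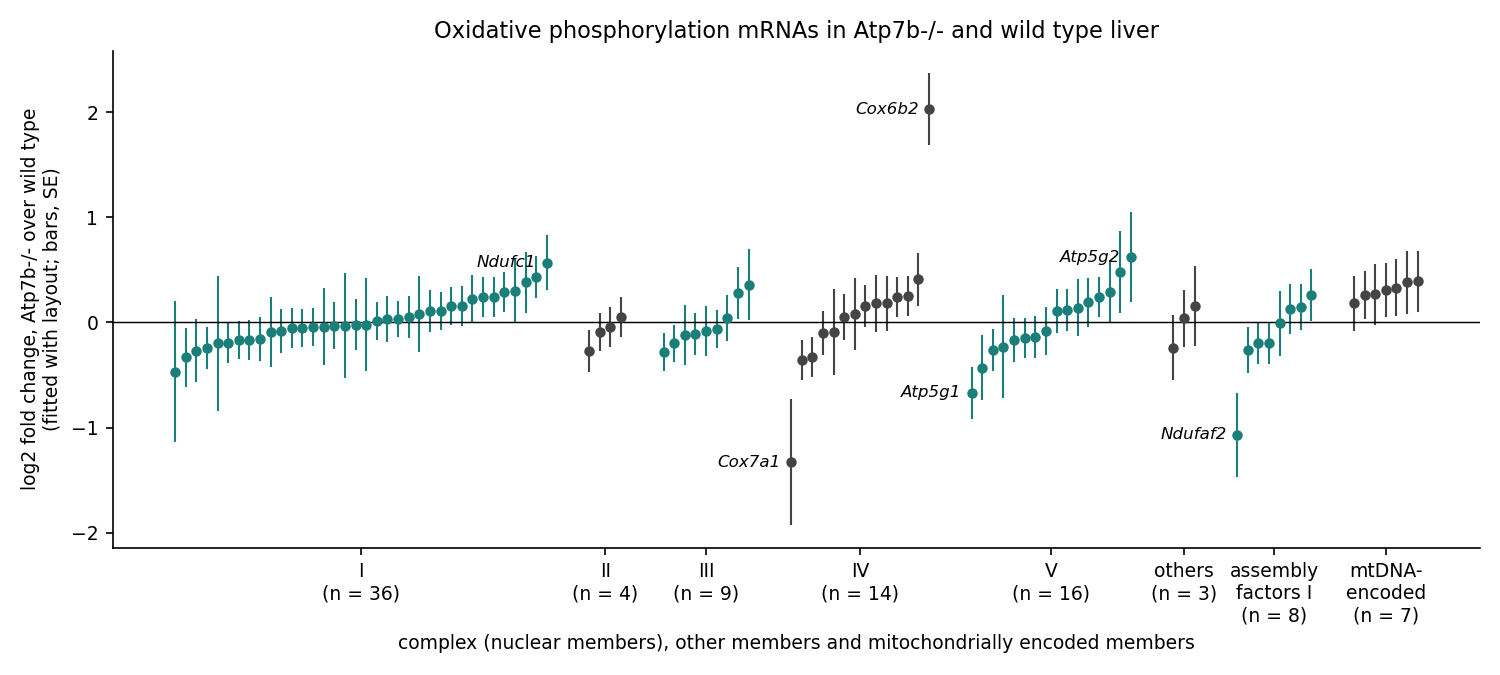
Fitted log2 fold change (Atp7b-/- over wild type, vertical axis) with its SE for the 97 members that passed the filter, ordered by size within each group along the horizontal axis; "others" are Cycs, Cox7a2l and Atp5s. All but 6 points lie within 0.5 of 0, and Cox6b2 stands highest at 2.03.

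The median log2 fold change of all genes was -0.01. The 90 nuclear members tested had a median log2 fold change of -0.02, with 43 above and 47 below 0. By complex the nuclear median was -0.02 for complex I (36 tested), -0.06 for complex II (4), -0.08 for complex III (9), 0.12 for complex IV (14), 0.02 for complex V (16) and -0.10 for the assembly factors (8). The 7 mitochondrially encoded members tested had a median of 0.31, all above 0, and none was called. The layouts did not share these signs: 46 of 97 members (47.4%) had the same sign of difference in both layouts, against 58.1% of all genes. In a test of the interaction of layout and genotype, the smallest adjusted p among members was 0.987 (edgeR). That interaction cannot be told apart from a difference between labelled sexes in this design.

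Summed over nuclear members, transcript levels followed the layout and overlapped between genotypes. Complex V, with the highest sum, had members that summed to 5060, 5210 and 3470 CPM in Atp7b-/- libraries and to 4030, 5170 and 5640 CPM in wild type libraries. Complex I summed to 4040, 4570 and 2180 CPM in Atp7b-/- and to 2350, 3660 and 4940 CPM in wild type. In both complexes the paired-end library was the lowest of each genotype. The nuclear members together made up 13600 ± 3700 CPM in Atp7b-/- and 14000 ± 3390 CPM in wild type (SD, n = 3 each).

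**Figure D2:**
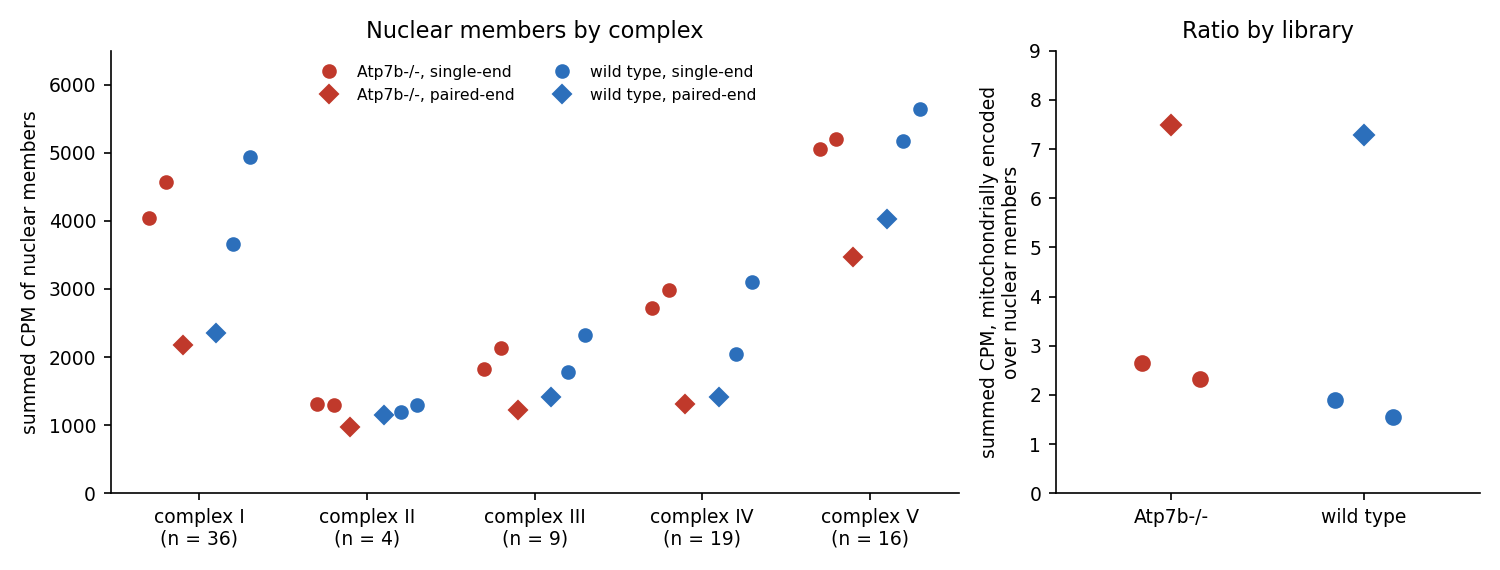
Left, summed CPM of the nuclear members of each complex in each library (points, vertical axis); right, the ratio of summed mitochondrially encoded to summed nuclear CPM by genotype. Diamonds are the paired-end libraries, which lie lowest of each genotype in all 5 complexes and at 7.49 (Atp7b-/-) and 7.29 (wild type) in the right panel.

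The called gene was Cox6b2 (ENSMUSG00000051811, chr7:4751792-4753094, minus strand, GRCm38), the testis-type isoform of complex IV subunit 6b, which lies on the outer face of the complex beside the site where cytochrome c docks. It had 177, 71.4 and 15.6 CPM in Atp7b-/- libraries, from 3037, 509 and 453 counts, and 3.75, 26.1 and 35.6 CPM in wild type libraries, from 82, 307 and 192 counts. Across layouts the genotypes overlapped, since the paired-end Atp7b-/- library lay below both single-end wild type libraries. Within each layout every Atp7b-/- library was above every wild type one: the log2 difference was 2.02 between the paired-end libraries (1 against 1) and 1.88 between the single-end libraries (2 against 2). The fitted log2 fold change was 2.03 (SE 0.34, adjusted p = 0.0185, edgeR), a 4.09-fold higher level in Atp7b-/-. The layout effect was larger, 8.07-fold higher in single-end libraries (log2 -3.01, paired-end over single-end). The call was lost when layout was dropped from the fit or replaced by labelled sex (log2 2.02, adjusted p = 1.0 in both, edgeR), in the single-end libraries alone (log2 2.02, adjusted p = 0.122) and when Atp7b-/- replicate 3, wild type replicate 1 or wild type replicate 3 was left out (adjusted p = 0.115, 0.116 and 0.103, edgeR).

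The housekeeping isoform of the same subunit, Cox6b1, had 157, 129 and 130 CPM in Atp7b-/- libraries and 127, 104 and 120 CPM in wild type libraries. Its genotypes did not overlap, which held for 1 member in that direction among 97 and for 5.23% of all genes, and the difference was small (log2 0.25, SE 0.19, adjusted p = 0.619, edgeR). Per kilobase of mRNA, Cox6b2 averaged 150 CPM in Atp7b-/- and 37.3 CPM in wild type, and Cox6b1 225 CPM in Atp7b-/- and 189 CPM in wild type. Neither neighbour of Cox6b2 on the chromosome was called. Kmt5c, a histone methyltransferase gene 4277 bases away, had 29.2, 28.6 and 11.6 CPM in Atp7b-/- and 15.3, 48.7 and 69 CPM in wild type (log2 -0.81, adjusted p = 0.116, edgeR), and Fam71e2, 131 bases away, had at most 0.344 CPM in any library and was not tested.

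**Figure D3:**
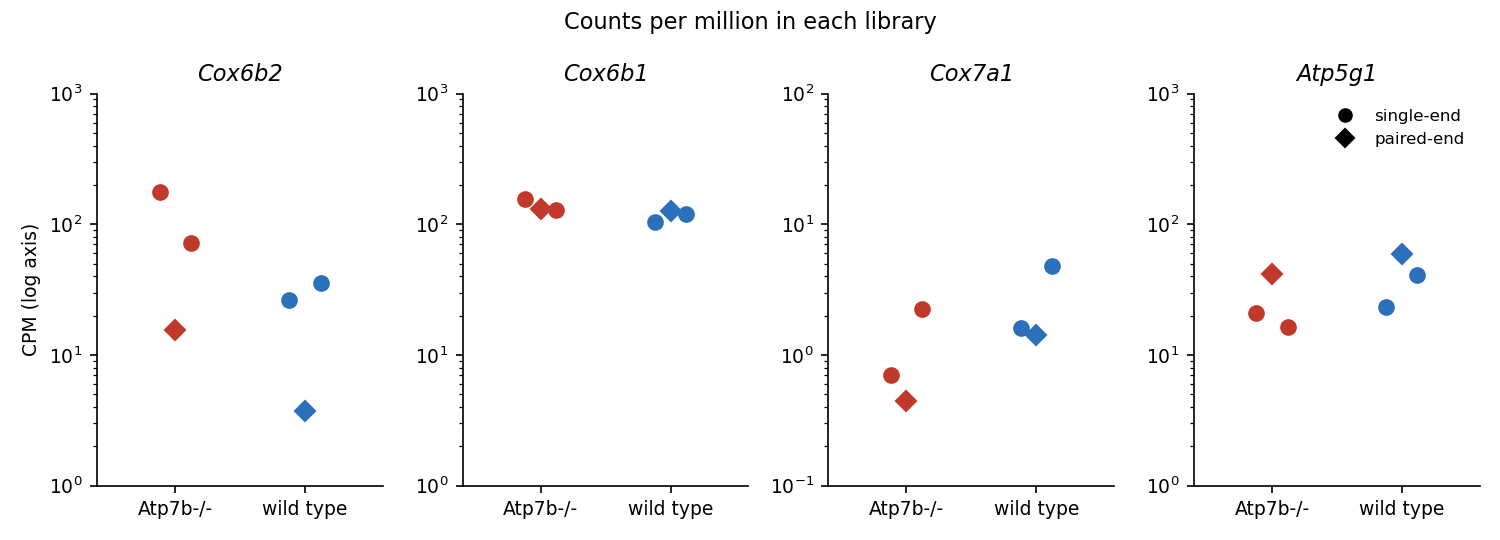
CPM (log axis) of Cox6b2, its paralog Cox6b1, the muscle-type isoform gene Cox7a1 and the ATP synthase gene Atp5g1 in each Atp7b-/- and wild type library; diamonds are paired-end. Cox6b2 spans 15.6 to 177 CPM in Atp7b-/- and 3.75 to 35.6 CPM in wild type, while Cox6b1 stays between 104 and 157 CPM.

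The promoters of both isoforms and of Sdhd are shown because nuclear respiratory genes are known for sites of the factors NRF1 and GABPA, and these differ in what they hold. Each runs from 250 bases before to 50 after the gene's start (RefSeq, GRCm38.p6), 5′ to 3′ on the gene's own strand, with motif matches in capitals.
Cox6b2, chr7:4753045-4753344, minus strand: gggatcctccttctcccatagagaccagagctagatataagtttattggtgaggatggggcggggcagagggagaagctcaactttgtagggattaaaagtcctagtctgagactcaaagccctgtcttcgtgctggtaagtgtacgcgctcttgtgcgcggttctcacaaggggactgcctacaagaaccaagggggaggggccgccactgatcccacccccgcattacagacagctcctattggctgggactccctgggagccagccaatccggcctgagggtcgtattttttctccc
Cox6b1, chr7:30626065-30626364, minus strand: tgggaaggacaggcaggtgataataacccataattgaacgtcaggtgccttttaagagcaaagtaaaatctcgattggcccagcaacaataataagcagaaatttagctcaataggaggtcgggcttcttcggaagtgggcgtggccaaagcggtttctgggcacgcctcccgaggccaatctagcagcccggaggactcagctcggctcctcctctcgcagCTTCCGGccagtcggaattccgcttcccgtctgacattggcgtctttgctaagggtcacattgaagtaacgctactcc
Sdhd, chr9:50603800-50604099, minus strand: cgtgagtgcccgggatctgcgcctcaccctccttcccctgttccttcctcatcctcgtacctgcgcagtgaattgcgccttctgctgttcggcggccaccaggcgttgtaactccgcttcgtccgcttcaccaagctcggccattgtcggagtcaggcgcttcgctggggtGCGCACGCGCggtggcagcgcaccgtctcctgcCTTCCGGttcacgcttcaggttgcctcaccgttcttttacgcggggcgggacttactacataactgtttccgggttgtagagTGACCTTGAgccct
The letters searched on both strands were the core bound by ETS factors such as GABPA (CCGGAAG), the NRF1 palindrome, a YY1 site (AAGATGGCG), an estrogen-related receptor site (TCAAGGTCA) and TATAAA. Cox6b2 held none of them, Cox6b1 held the ETS core and Sdhd held the ETS, NRF1 and estrogen-related receptor letters, all on the opposite strand. Promoters were found for 77 of the 95 nuclear members, 82 promoters in all. The ETS core was in 22.0% of them and in 8.86% of all 32851 promoters of the same length. The NRF1 letters were in 24.4% of member promoters and 4.60% of all promoters, the YY1 letters in 9.76% and 1.40%, the estrogen-related receptor letters in 2.44% and 0.423%, and TATAAA in 9.76% and 13.6%. A match describes letters in the window and is no evidence of binding.

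Complex I, the NADH dehydrogenase, had all 36 nuclear members tested and 0 called in either direction by edgeR, DESeq2 or limma-voom, with 0 at an unadjusted p under 0.05. Ndufv1, the subunit that binds NADH, had 224, 204 and 107 CPM in Atp7b-/- libraries and 140, 224 and 222 CPM in wild type libraries (log2 -0.17, SE 0.18). Ndufs1, the largest iron-sulfur subunit of the electron path, had 89.2, 97.4 and 171 CPM in Atp7b-/- and 199, 81.1 and 89.2 CPM in wild type (log2 0.01, SE 0.18). For both genes the single-end libraries of the genotypes lay on top of each other, and it was the paired-end libraries that stood apart. Ndufc1 and Ndufb3, small accessory subunits of the membrane arm, had the smallest p in the complex. Ndufc1 had 23.9, 27.1 and 24.8 CPM in Atp7b-/- and 27.2, 13.5 and 12.8 CPM in wild type (log2 0.57, SE 0.26, adjusted p = 0.357, edgeR). Ndufb3 had 98.2, 114 and 45.6 CPM in Atp7b-/- and 42.4, 75.6 and 64.3 CPM in wild type (log2 0.43, SE 0.20, adjusted p = 0.361, edgeR). The genotypes overlapped in both, through the paired-end libraries. The next smallest p belonged to Ndufb6, another accessory subunit, with 0.29 on the log2 scale (edgeR, adjusted p = 0.524). The lowest fold change was that of Ndufb2, at -0.47 with an SE of 0.67. It had 15.9, 27.6 and 30.8 CPM in Atp7b-/- and 31.4, 10.9 and 60.2 CPM in wild type, so that the wild type libraries alone spanned the whole range.

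Wide spreads of this kind recurred in several small accessory subunits, and they joined the shallower single-end library of each genotype rather than the genotype. Ndufa3 had 108, 317 and 35.2 CPM in Atp7b-/- and 44.2, 94.3 and 374 CPM in wild type, and Ndufa5 had 104, 229 and 34.1 CPM in Atp7b-/- and 36.7, 87.7 and 240 CPM in wild type. Atp5e, the epsilon subunit of the ATP synthase, had 149, 339 and 73.5 CPM in Atp7b-/- and 74.2, 151 and 467 CPM in wild type. In each of the 3 genes, Atp7b-/- replicate 2 and wild type replicate 3 were the high libraries. The 90 nuclear members tested had a median mRNA length of 892 bases. Of them, 47 were higher in Atp7b-/- replicate 2 than in replicate 1 and also in wild type replicate 3 than in replicate 2 (median length 714 bases). Another 19 were lower in both (908 bases), and 24 went opposite ways (1160 bases). These counts describe libraries of 1 genotype against each other, and their source was not tested.

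Complex II, succinate dehydrogenase, which also serves the citric acid cycle, differed between layouts in 1 of its 4 members, and 0 were called for the genotype by edgeR, DESeq2 or limma-voom, with 0 at an unadjusted p under 0.05. Sdha, its flavin-bearing catalytic subunit, had 790, 733 and 525 CPM in Atp7b-/- and 623, 710 and 741 CPM in wild type (log2 -0.04, SE 0.19). Sdhb, the iron-sulfur subunit, had 277, 306 and 172 CPM in Atp7b-/- and 204, 245 and 263 CPM in wild type (log2 0.05, SE 0.19). The genotypes overlapped for both. Of the membrane anchors, Sdhc stood at a log2 fold change of -0.27 (edgeR adjusted p = 0.607), and Sdhd had 180, 181 and 177 CPM in Atp7b-/- and 199, 176 and 196 CPM in wild type, with the genotypes overlapping.

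Complex III, the ubiquinol to cytochrome c reductase, had 0 of 10 members called by edgeR, DESeq2 or limma-voom and 0 at an unadjusted p under 0.05. Uqcrfs1, the Rieske iron-sulfur protein, had 153, 173 and 151 CPM in Atp7b-/- and 199, 193 and 189 CPM in wild type. Its genotypes did not overlap, which was so in the lower direction for 2 of 97 members and for 3.28% of all genes, yet the difference was small (log2 -0.28, SE 0.18, adjusted p = 0.523, edgeR). The other of the 2 was Cox5a of complex IV. Cyc1, the haem-bearing cytochrome c1, had 293, 269 and 137 CPM in Atp7b-/- and 150, 310 and 357 CPM in wild type (log2 -0.20, SE 0.18). Uqcrc2, a core protein of the matrix side, had 165, 226 and 293 CPM in Atp7b-/- and 375, 129 and 130 CPM in wild type (log2 0.28, SE 0.25, adjusted p = 0.674, edgeR).

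Cytochrome c itself followed the layout. Cycs had 1.11, 0.842 and 37.5 CPM in Atp7b-/- libraries and 56.8, 0.68 and 1.11 CPM in wild type libraries. The 4 single-end libraries held 6 to 19 counts, and the paired-end ones 1089 and 1242. Its genotype log2 fold change was -0.24 (SE 0.31, adjusted p = 0.782, edgeR), and its layout log2 fold change 5.61. In all, 27.9% of the 54-base windows of its mRNA matched transcripts of 48 other annotated genes exactly.

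Complex IV holds the pairs of tissue isoforms, and in these livers the lung-, muscle- and testis-type partners other than Cox6b2 were barely counted. Cox4i1 had 349, 327 and 224 CPM in Atp7b-/- and 231, 273 and 244 CPM in wild type (log2 0.24, SE 0.19), and the lung-type Cox4i2 had at most 6 counts in any library. Cox6a1 had 1280, 1630 and 163 CPM in Atp7b-/- and 123, 974 and 1810 CPM in wild type (log2 0.18, SE 0.27), so that the paired-end libraries held far less than the others in both genotypes. The muscle-type Cox6a2 had 2, 0 and 0 counts in Atp7b-/- and 9, 0 and 1 in wild type, its highest count falling in the library with skeletal muscle markers. The muscle-type Cox8b had 1, 0 and 10 counts in Atp7b-/- and 11, 0 and 0 in wild type, its high counts falling in the 2 libraries with adipose markers. The part of those tissues in these counts was not tested. Cox8a, the ubiquitous form, had a log2 fold change of -0.10 (SE 0.21), Cox8c was at 0 in every library and Cox7b2 had 1 count in all. Cox4i2, Cox6a2, Cox7b2, Cox8b and Cox8c were the 5 nuclear members that did not pass the filter.

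Cox7a1, the heart and muscle isoform of subunit 7a, had 0.7, 2.24 and 0.448 CPM in Atp7b-/- and 1.42, 1.61 and 4.82 CPM in wild type, from 12 to 16 counts in Atp7b-/- and 19 to 31 in wild type. Within each layout it was lower on average in Atp7b-/-, by -1.42 on the log2 scale between paired-end and -1.07 between single-end libraries. The paired-end wild type library, with 31 counts of this muscle isoform, is the one with skeletal muscle markers. The part of that tissue in the -1.42 was not tested. The genotypes overlapped and the call was not made (log2 -1.33, SE 0.60, adjusted p = 0.359, edgeR). Its ubiquitous counterpart Cox7a2 had 38.6, 59.9 and 94.7 CPM in Atp7b-/- and 75.4, 27 and 45.4 CPM in wild type (log2 0.41, SE 0.25, adjusted p = 0.518, edgeR). Cox7a2l, the factor that ties complex III to complex IV, had a log2 fold change of 0.04 (SE 0.27). Cox5a, which binds the core of the enzyme on the matrix side, had 74.9, 87.4 and 86.1 CPM in Atp7b-/- and 115, 88.7 and 115 CPM in wild type. These did not overlap, by a gap of 87.4 to 88.7 CPM, and the difference did not pass the test (log2 -0.36, SE 0.19, adjusted p = 0.447, edgeR). Ndufa4, first assigned to complex I and now to complex IV, had a log2 fold change of 0.05 (SE 0.22), and its low-oxygen-induced isoform Ndufa4l2, at 1.14 to 2.72 CPM, one of -0.09 (SE 0.41).

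Complex V, the ATP synthase, had 0 of 16 nuclear members called by edgeR, DESeq2 or limma-voom and 1 at an unadjusted p under 0.05. Atp5b, the catalytic beta subunit, had 1450, 1570 and 1050 CPM in Atp7b-/- and 1190, 1590 and 1690 CPM in wild type (log2 -0.14, SE 0.20). Atp5a1, the alpha subunit, had 1550, 1370 and 797 CPM in Atp7b-/- and 1050, 1740 and 1600 CPM in wild type (log2 -0.26, SE 0.20). The rotating c ring is made of a peptide that 3 genes encode identically in its mature form. Of these, Atp5g1 had 21, 16.3 and 41.7 CPM in Atp7b-/- and 59, 23.4 and 40.8 CPM in wild type, lower in Atp7b-/- with no overlap within each layout but overlapping across layouts (log2 -0.67, SE 0.25, adjusted p = 0.245, edgeR). Atp5g2 had 2.51, 1.54 and 7.23 CPM in Atp7b-/- and 7.22, 1.19 and 0.556 CPM in wild type (log2 0.62, SE 0.43, adjusted p = 0.563, edgeR). Atp5g3 had 381, 413 and 311 CPM in Atp7b-/- and 291, 301 and 340 CPM in wild type (log2 0.24, SE 0.19, adjusted p = 0.627, edgeR). Windows matching other genes made up 10.4% of Atp5g1, 36.6% of Atp5g2 and 0% of Atp5g3, so the counts of the first pair are uncertain. Atp5d, the delta subunit of the central stalk, had the smallest p among the remaining subunits with a log2 fold change below 0 (-0.43, SE 0.31, adjusted p = 0.579, edgeR). Atp5s, which is no subunit of the enzyme, had a log2 fold change of 0.16 (SE 0.38).

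Among the 8 Ndufaf assembly factors, which build complex I and do not stay in it, 0 were called by edgeR, DESeq2 or limma-voom. Ndufaf2, a chaperone of late assembly, was the 1 with an unadjusted p under 0.05. It had 9.09, 20.1 and 5.85 CPM in Atp7b-/- and 11, 19 and 45.4 CPM in wild type, and the log2 fold change of -1.07 (SE 0.40, adjusted p = 0.28, edgeR) leaned on wild type replicate 3, since Atp7b-/- replicate 2 lay above the other wild type libraries. It lies across 2 other annotated genes, B230220B15Rik and Smim15, on the opposite strand, and the sources used here do not give whether counting used strand. The same limit holds for the 50 members that overlap another gene. Ndufaf6 and Ndufaf7 came next by p, with -0.26 and 0.26 on the log2 scale (edgeR, adjusted p = 0.646 and 0.705).

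The mitochondrially encoded mRNAs split into a counted and an uncounted set. The 7 that passed the filter had 442 to 34500 CPM in a library, led per kilobase by mt-Co1, the catalytic core of complex IV, with 11500 CPM in Atp7b-/- and 10500 CPM in wild type on average. The highest nuclear member per kilobase was Cox6a1, at 1790 CPM in Atp7b-/- and 1690 CPM in wild type. mt-Co1 had 12200, 8050 and 32900 CPM in Atp7b-/- libraries and 34500, 8010 and 6110 CPM in wild type libraries. mt-Cytb, the cytochrome b of complex III, had 9210, 10100 and 11400 CPM in Atp7b-/- and 12400, 6600 and 7640 CPM in wild type. The complex I subunit mt-Nd1 had 4520, 7220 and 6510 CPM in Atp7b-/- and 7410, 3320 and 4010 CPM in wild type. In the single-end libraries every Atp7b-/- value of these 3 mRNAs was above every wild type value, whereas in the paired-end libraries wild type was the higher one.

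The sign turned between layouts in all 7. Their differences between genotypes had a median of 0.54 on the log2 scale in the single-end libraries (2 against 2) and of -0.19 in the paired-end libraries (1 against 1), and 0 of 7 had the same sign in both layouts. The labelled sex of each genotype switched between layouts too, so libraries labelled male were higher on average in both layouts for all 7. A genotype difference that turns with layout cannot be told apart here from a difference between labelled sexes. The fit over both layouts gave log2 fold changes from 0.18 for mt-Nd2 to 0.39 for mt-Nd1, with SEs of 0.23 to 0.30, and 0 of 7 were called by edgeR, DESeq2 or limma-voom, with 0 at an unadjusted p under 0.05. mt-Nd1 had the smallest p (log2 0.39, SE 0.29, adjusted p = 0.588, edgeR), followed by mt-Nd5 (log2 0.38, SE 0.30, adjusted p = 0.631) and mt-Nd4 (log2 0.31, SE 0.26, adjusted p = 0.64). The mRNAs are cut from shared transcripts of both strands of mitochondrial DNA, so they are not independent measurements. mt-Nd6, the one encoded on the light strand, had 812, 996 and 1440 CPM in Atp7b-/- and 1710, 442 and 816 CPM in wild type (log2 0.27, SE 0.29).

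As a share of all counts, the 13 mRNAs took 4.11%, 4.02% and 7.84% in Atp7b-/- libraries and 7.19%, 2.54% and 2.47% in wild type libraries. The 6 of the uncounted set had at most 21 counts in a library, so this share and the ratio that follows rest on the 7 counted mRNAs. The ratio of their summed CPM to that of the nuclear members was 2.64, 2.33 and 7.49 in Atp7b-/- and 7.29, 1.89 and 1.55 in wild type, with means of 4.15 ± 2.89 in Atp7b-/- and 3.58 ± 3.22 in wild type (SD, n = 3 each). Within the single-end libraries the mean ratio was 1.44-fold higher in Atp7b-/-, with no overlap between 2 libraries and 2, and between the paired-end libraries it was 1.03-fold higher. No p is given for this sum over chosen genes.

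The uncounted set was mt-Co2 and mt-Co3 of complex IV, mt-Atp6 and mt-Atp8 of complex V, and mt-Nd3 and mt-Nd4l of complex I. None exceeded 21 counts in a library. mt-Co2, which carries a copper centre and takes electrons from cytochrome c, had 2, 4 and 14 counts in Atp7b-/- and 9, 2 and 0 in wild type, counts too few to give a level. Its neighbour mt-Co1 had 209773, 57396 and 955777 counts in Atp7b-/- and 755744, 94285 and 32970 in wild type. These 6 genes lie side by side on mitochondrial DNA between bases 7013 and 10173. For 5 of them, nearly every 54-base window of the mRNA, which is the read length, also occurs exactly in an annotated pseudogene on chromosome 1, in a cluster between bases 24611535 and 24616197: 100% for mt-Co2, 99.9% for mt-Co3, 99.5% for mt-Atp6, 98.8% for mt-Nd4l and 98.0% for mt-Nd3. The first window of mt-Co2 is shown as an exact match to its copy, and that of mt-Nd3 as a window with 1 mismatch (GENCODE M21 transcripts, GRCm38, coding strand). Capitals mark the base at which the pair differs.
mt-Co2, chrM:7013-7066, plus strand: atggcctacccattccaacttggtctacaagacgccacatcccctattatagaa
Gm28661, chr1:24615512-24615565, minus strand: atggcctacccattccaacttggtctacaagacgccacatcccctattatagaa
mt-Nd3, chrM:9459-9512, plus strand: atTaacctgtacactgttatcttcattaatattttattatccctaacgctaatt
Gm28438, chr1:24613066-24613119, minus strand: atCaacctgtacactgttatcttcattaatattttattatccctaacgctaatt
The copy of mt-Co2, Gm28661, had 0 mismatches over 681 aligned bases, and that of mt-Nd3, Gm28438, had 1 over 345. Counts assigned to these copies were also low beside those of the well counted mitochondrial mRNAs. Gm28661 had 3.38, 1.68 and 1.45 CPM in Atp7b-/- and 1.1, 3.31 and 4.08 CPM in wild type, and Gm28438 had 3.73, 4.77 and 33.2 CPM in Atp7b-/- and 44.7, 2.46 and 4.08 CPM in wild type.

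Among the well counted mRNAs the share of matching windows was 62.1% for mt-Nd4, 49.1% for mt-Co1, 7.72% for mt-Nd2, 6.15% for mt-Nd5 and 0% for mt-Nd1, mt-Nd6 and mt-Cytb. The exception to the order was mt-Atp8, which shared 0% of its windows and had 1 count in all 6 libraries together. It is 204 bases long, and the annotated copies of its neighbours mt-Co2 and mt-Atp6 on chromosome 1 leave 233 bases between them with no annotated transcript, whose sequence was not analysed here. The sources used here do not give how reads that match more than 1 place were counted, and the part of the copies in the low counts was not tested. For these 6 mRNAs the files therefore give no level, and no comparison between the genotypes was made.

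**Figure D4:**
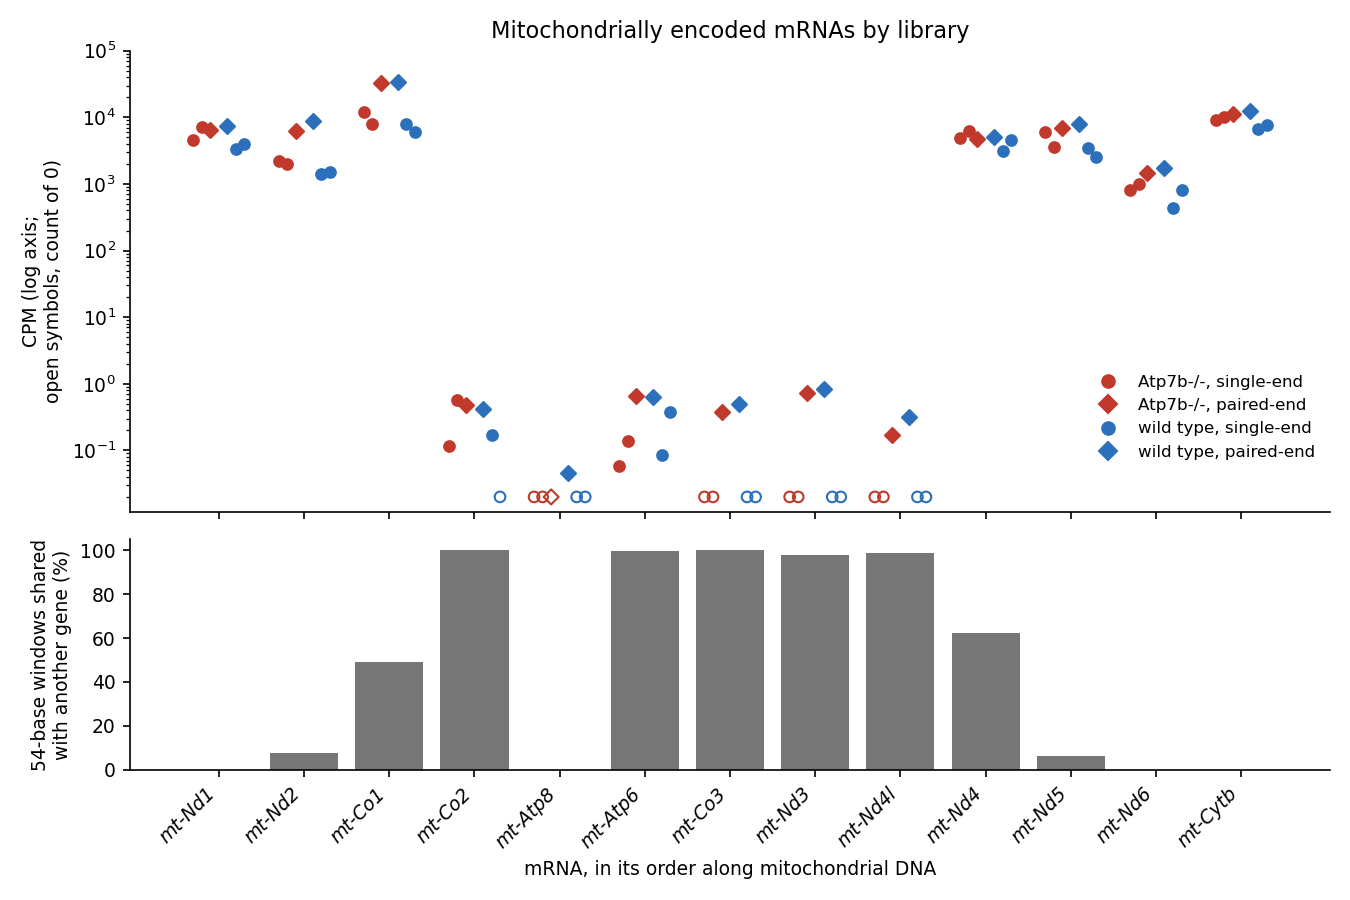
Top, CPM (log axis) of the 13 mitochondrially encoded mRNAs in each Atp7b-/- and wild type library, in their order along mitochondrial DNA, with open symbols for a count of 0; bottom, the percentage of each mRNA's 54-base windows that occur exactly in a transcript of another gene. The 6 mRNAs from mt-Co2 to mt-Nd4l lie below 1 CPM, and 5 of them share 98.0% to 100% of their windows.

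The layout of the run separated the libraries in far more members than the genotype did. Of the 97 members, 63 (64.9%) differed between paired-end and single-end libraries at an adjusted p under 0.05 (edgeR), against 52.8% of all genes. Of these, 27 were higher in paired-end and 36 in single-end libraries. Uqcrb, a small subunit of complex III, had 16.7, 9.54 and 127 CPM in Atp7b-/- and 171, 9.09 and 5.75 CPM in wild type (layout log2 3.90), and Atp5k, a subunit where ATP synthases pair, had 315, 322 and 22.1 CPM in Atp7b-/- and 25.7, 295 and 142 CPM in wild type (layout log2 -3.45). Both genes had genotype log2 fold changes that did not pass the test, 0.36 for Uqcrb and 0.29 for Atp5k. Over the 90 nuclear members, Spearman's rho of the layout log2 fold change was -0.65 with the GC content of the mRNA, 0.33 with its length and 0.39 with its share of matching windows. The same measures had rho of -0.13, -0.21 and 0.17 with the genotype log2 fold change. These are descriptions across genes of the same 6 libraries. The 16 nuclear members that shared over 10% of their windows had a median layout log2 fold change of 1.39, and the 60 tested that shared at most 1% had one of -0.67. For the genotype the medians were 0.11 and -0.05.

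**Figure D5:**
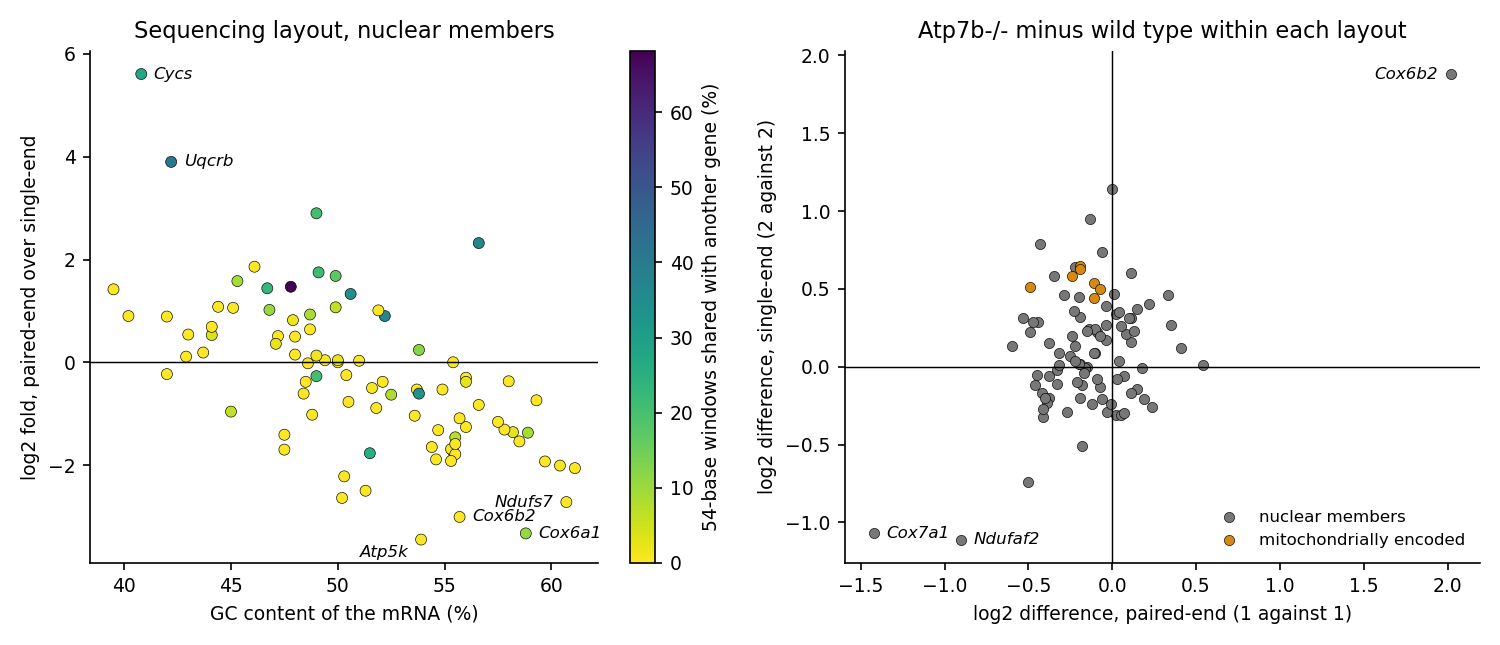
Left, layout log2 fold change (paired-end over single-end) of the 90 nuclear members tested against the GC content of the mRNA, coloured by the share of 54-base windows found in another gene; right, the log2 difference of Atp7b-/- minus wild type within the single-end (vertical) against the paired-end libraries (horizontal). Cycs and Uqcrb stand highest on the left, and Cox6b2 stands alone at the upper right with 2.02 and 1.88, while the 7 mitochondrially encoded members lie left of 0 and above 0.

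The wider machinery of mitochondria was described from lists of other genes. Of 37 further assembly factors of the respiratory complexes that were tested, 0 were called in edgeR and 1 had an unadjusted p under 0.05. DESeq2 called 1 lower, against 302 lower of all 12988 genes, and limma-voom called 0. The median log2 fold change was 0.06. Of 75 mitochondrial ribosomal proteins, 0 were called by any of the 3 tools and 5 had an unadjusted p under 0.05. Their median was 0.12, with 58 above and 17 below 0, but the layouts differed, at 0.23 in single-end and -0.03 in paired-end libraries. The 14 citric acid cycle enzymes had 0 calls by any tool, 0 at an unadjusted p under 0.05 and a median of 0.04, and Cs, citrate synthase, had 117, 116 and 143 CPM in Atp7b-/- and 126, 99.9 and 104 CPM in wild type (log2 0.19). The 9 carriers and uncoupling proteins tested also had 0 calls by any tool, 1 unadjusted p under 0.05 and a median of -0.03.

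Calls were made in 2 lists. Among 25 genes of mitochondrial biogenesis and mitochondrial DNA expression, 0 were called higher and 1 lower, against 0.585% of all genes called lower. At an unadjusted p under 0.05 there were 4, all lower (16% of the list). Of all 12988 genes, 876 were lower at that p, and 14.5% were under it in either direction. The list's median log2 fold change was -0.05. The called gene was Ppargc1b, a coactivator of nuclear respiratory genes, which had 17.5, 19.2 and 1.72 CPM in Atp7b-/- and 6.08, 39.8 and 41.3 CPM in wild type. It was lower in Atp7b-/- within each layout (log2 -1.35, adjusted p = 0.0129, edgeR), and the related Ppargc1a stood at -0.88 on the log2 scale (edgeR, adjusted p = 0.267). Among 7 other enzymes that feed electrons to ubiquinone, 0 were called higher and 1 lower, 1 had an unadjusted p under 0.05, and the median was -0.16. This was Prodh, proline dehydrogenase, with 196, 205 and 78.2 CPM in Atp7b-/- and 152, 330 and 402 CPM in wild type (log2 -0.90, adjusted p = 0.0434, edgeR). For both genes the ranges overlapped across layouts and were separate within each. Both calls were lost when layout was dropped or replaced by labelled sex, where 0 genes in all were called (edgeR).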

How the data were processed

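Liver RNA of 6 libraries was sequenced with 54-base reads. Per the submitters' processing notes, STAR 2.4, featureCounts and edgeR 3.8 were used with GRCm38; the deposited table holds raw counts per Ensembl gene. Symbols came from GENCODE M21, for 40254 of 41388 rows, and promoters from RefSeq. The members and gene lists were chosen with earlier results of these data known.

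Counts were fitted with edgeR 4.0.16 in R 4.3.3 (minimum count of 10, TMM, robust quasi-likelihood, layout and genotype as terms), with Benjamini-Hochberg adjustment over 12988 genes. The SE was taken as the fold change (log2) over the root of F. CPM used TMM-scaled library sizes, and log2 CPM within layouts a prior count of 2. Lengths are those of the principal coding transcript. Windows of 54 bases of coding transcripts were sought, on either strand, in transcripts of genes elsewhere. The script was tested on simulated data.

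Named members were the called ones, the 3 smallest p in each complex and list, all mitochondrially encoded mRNAs, isoform pairs, catalytic subunits and the extremes per kilobase. Cox6b2's neighbours, Ndufb2, Ndufa3, Ndufa5, Atp5e, Uqcrb, Atp5k and the chromosome 1 copies were added after their values were seen. DESeq2 1.42.0, limma-voom 3.58.1, other filters, scalings and terms, and leaving out libraries were alternatives. Replicate numbers only name libraries.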

Additional observations from a re-analysis of the deposited data

How the results depend on the processing

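The call of Cox6b2 held under 9 of 15 alternatives, which are not all separate. DESeq2, limma-voom, the other scalings and the other filters, where it held, refit the same 6 libraries with the layout term. Among changes of libraries or terms it held only without Atp7b-/- replicate 1, Atp7b-/- replicate 2 or wild type replicate 2. Leaving out Atp7b-/- replicate 3 or wild type replicate 1 leaves 1 paired-end library, which the layout term takes up. Both fits then compare the genotypes in the single-end libraries, nearly as the fit of those libraries alone does. The number of members called higher was 0 without the layout term, 0 with labelled sex in its place and 0 in the single-end libraries alone, and 0 to 1 when a library was left out. The number called lower was 1 with no filter on low counts (Ndufaf2, log2 -1.03, adjusted p = 0.00245, edgeR). Over all genes the calls numbered 0 without the layout term, 0 with labelled sex, 126 in the single-end libraries, 770 in DESeq2 and 1116 with no filter, and 119 to 323 when a library was left out. The median log2 fold change of the mitochondrially encoded members was -0.19 in the paired-end libraries alone, a setting chosen after seeing the data, and above 0 in the others (0.14 to 0.54 when a library was left out), and that of complex II was -0.24 there. The cause was not tested. The other medians by genome and complex moved by less than the spread between members. Of 42 named members tested, 13 changed sign under some alternative, none of them called. No paired analysis was possible because the labels give no number or other link that pairs libraries of the genotypes. With 3 libraries per genotype and a median SE of 0.22, small differences were not detectable, and the 6 uncounted mitochondrial mRNAs have no level.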
